A study of Mus musculus with 24 samples.

Results

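The growth hormone and STAT5 axis of the liver was followed through 9 genes. They are Ghr, the gene of the growth hormone receptor; Stat5a and Stat5b, the genes of the transcription factors that the receptor activates; Igf1 and Igfals, whose secreted products carry the hormone's effect; Socs2 and Cish, the genes of feedback inhibitors; Bcl6, the gene of a repressor; and Hsd3b5, a male-biased steroid enzyme gene. Members were chosen by name, and each name matched 1 of the 31027 loci in the deposited expression table. All 9 had a mean of at least 1 FPKM (read fragments per unit of transcript length and of library size) over the 24 libraries and so were among the 10562 loci tested. The RNA came from livers of C57BL/6J mice, with 3 libraries in each of 8 groups. Every mouse carried Alb-Cre, in which the albumin promoter drives Cre recombinase in hepatocytes, so other liver cells keep their alleles. Jnk1Jnk2 livers carried floxed alleles of both stress kinase genes, Jnk1 (Mapk8) and Jnk2 (Mapk9), Jnk1 livers floxed Mapk8 alone, and Jnk2 livers floxed Mapk9 alone. Control livers, labelled wild type, had Alb-Cre and no floxed allele named in the labels. Each genotype was studied after 16 weeks of a high fat diet and after 16 weeks of chow. The sex and age of the mice are not given in the sources used here. Nothing in the labels ties a replicate to a mouse of its own, so p-values describe the spread among these libraries, which may be technical.

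Growth hormone binds its receptor on hepatocytes and activates the kinase JAK2, which phosphorylates STAT5A and STAT5B. The STAT5 proteins then turn on Igf1, Igfals, Socs2 and Cish, and the products of Socs2 and Cish damp the signal at the receptor. BCL6 is a repressor that binds many of the same DNA sites as STAT5. In mice the pattern of hormone pulses differs between the sexes, and STAT5B is the form on which male-biased liver genes such as Hsd3b5 most depend.

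All 7 hepatocyte markers looked for were among the tested loci. Mapk8 lay at 0.845 to 2.47 FPKM in libraries of the genotypes with the floxed allele and at 3.38 to 5.77 FPKM in the others, and Mapk9 at 4.33 to 7.79 against 9.01 to 12.0 FPKM. The summed FPKM of the 3 high fat Jnk1Jnk2 libraries was 849038 to 873399, against 634849 to 734352 in the other 21. FPKM also fell with transcript length in those 3: Spearman's correlation, across loci, between length and a library's log2(FPKM + 1) minus the mean over libraries was -0.60, -0.66 and -0.59, against -0.25 to 0.41 in the other 21. Many results for that group are therefore also given with the length trend of each library removed. High fat Jnk2 replicate 3 stood apart from its group, with a mean correlation to the other two of 0.952, against 0.964 and 0.965 for those. At 7 of the 9 genes it held the least of the 3, and its Igfbp1 stood at 139.9 FPKM against 16.9 and 32.9 FPKM. High fat Jnk1 replicate 2 also held the least of its group at 7 of the 9 genes. In chow Jnk1 livers the mean correlations were 0.953, 0.959 and 0.955, so 0.952 was not far from other libraries. The members' own values helped to single out high fat Jnk2 replicate 3, so calls gained without it are no separate evidence. Results that rest on it are given with and without it. Summed macrophage and Kupffer cell markers (10 genes, all measured) were 349 to 505 FPKM in high fat Jnk1Jnk2 livers and 236 to 333 in high fat Jnk2 livers, against 246 to 284 in high fat Control livers and 115 to 219 over all chow groups. Cholangiocyte markers (5 genes) summed to 35.1 to 62.8 FPKM in high fat Jnk1Jnk2 and 22.4 to 27.8 in high fat Jnk2 livers, against 18.2 to 25.4 in high fat Control livers. Endothelial markers (6 genes) came to 69.1 to 82.6 and 77.5 to 79.9 FPKM in the same genotypes, against 51.4 to 57.0 in Control. Stellate cell markers (7 genes) came to 104 to 184 and 123 to 161 FPKM, against 90.4 to 119 in Control. Their part in the results was not tested. In whole liver, fewer cells of a type and less RNA per cell cannot be told apart.

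STAT5 dimers are known to bind the letters TTCNNNGAA, which read the same on both strands. Start site windows from RefSeq (GRCm38.p6, 250 bases before to 50 after each start) were found for 8 of the 9 genes, 14 windows in all. Socs2 had no window and was not searched. The motif was present in 5 of the windows, in Igfals, Cish and Bcl6, against 2726 of all 32851 windows (8.30%). By gene this was 3 of 8, against 2582 of 27025 genes. The stretches are shown because in these members the letters lie within a start site window, and capitals mark the matches.
Igfals, chr17:24877598-24877626, plus strand: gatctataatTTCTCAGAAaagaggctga
Igfals, chr17:24878163-24878191, plus strand: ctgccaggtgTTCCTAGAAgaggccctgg
Cish, chr9:107296654-107296683, plus strand: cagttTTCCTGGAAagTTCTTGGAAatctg
Bcl6, chr16:23988952-23988980, minus strand: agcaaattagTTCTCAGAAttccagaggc
Bcl6, chr16:23981433-23981461, minus strand: aggccgcggcTTCCTGGAAagttacttct
Bcl6, chr16:23981387-23981415, minus strand: ggcaggagtgTTCTGTGAAatccttagag
Bcl6, chr16:23981353-23981381, minus strand: atcgactacgTTCCGGGAAtgagagggct
The Cish stretch holds a pair of matches 2 bases apart, and the second Bcl6 window holds 3. Those 3 lie inside the measured Bcl6 locus (chr16:23965052-23988612), at an internal start. Both Igfals stretches lie before the measured Igfals locus, which starts at 24878770. The Igfals window nearest that start held no match. A match is a description of the letters and not a measured binding site.

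Loss of both kinases under high fat feeding moved 4 of the 9 genes past an adjusted p of 0.05 (limma, Benjamini-Hochberg over all tested loci). Stat5b, Ghr and Bcl6 fell and Socs2 rose relative to Control livers on that diet. In this comparison 51.2% of all tested loci were called, so the share of members was near the background. After removal of the length trend 3 of the 9 were called, where 33.4% of 9452 loci were called. On chow, Stat5b fell in Jnk1 livers and was the single member called (1 of 9), where 2.2% of loci were called. None of the 9 was called in the other 4 genotype comparisons. For Jnk1 on high fat, 0.227% of loci were called and 2 members had an unadjusted p under 0.05. For Jnk2 on high fat, 12.4% were called and 5 members had such a p. For Jnk1Jnk2 on chow the figures were 0.161% and 3 members, and for Jnk2 on chow 0.454% and 2 members. Each diet's genotype comparisons share its 3 Control libraries. High fat against chow called Ghr, Igf1, Socs2 and Stat5a in Jnk1 livers (15% of loci called), Igf1 and Stat5a in Jnk2 livers (26%), Ghr and Socs2 in Control livers (16.3%), and Stat5b and Bcl6 in Jnk1Jnk2 livers (56.9%). Groups of 3 libraries that do not overlap were common in this table. For Jnk1Jnk2, Jnk1 and Jnk2 against Control on high fat, 6, 2 and 4 members did not overlap, against 52.4%, 18.7% and 26.4% of tested loci. On chow the counts were 2, 3 and 2 members, against 24.2%, 19.4% and 24.2% of loci. Between diets, 5, 5, 2 and 3 members did not overlap in Jnk1Jnk2, Jnk1, Jnk2 and Control livers, against 62%, 33.7%, 39.8% and 34.6% of loci. Log2 changes below are differences of log2(FPKM + 1) ± SE with 3 libraries per group, a scale that understates the change of low genes.

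**Figure D1:**
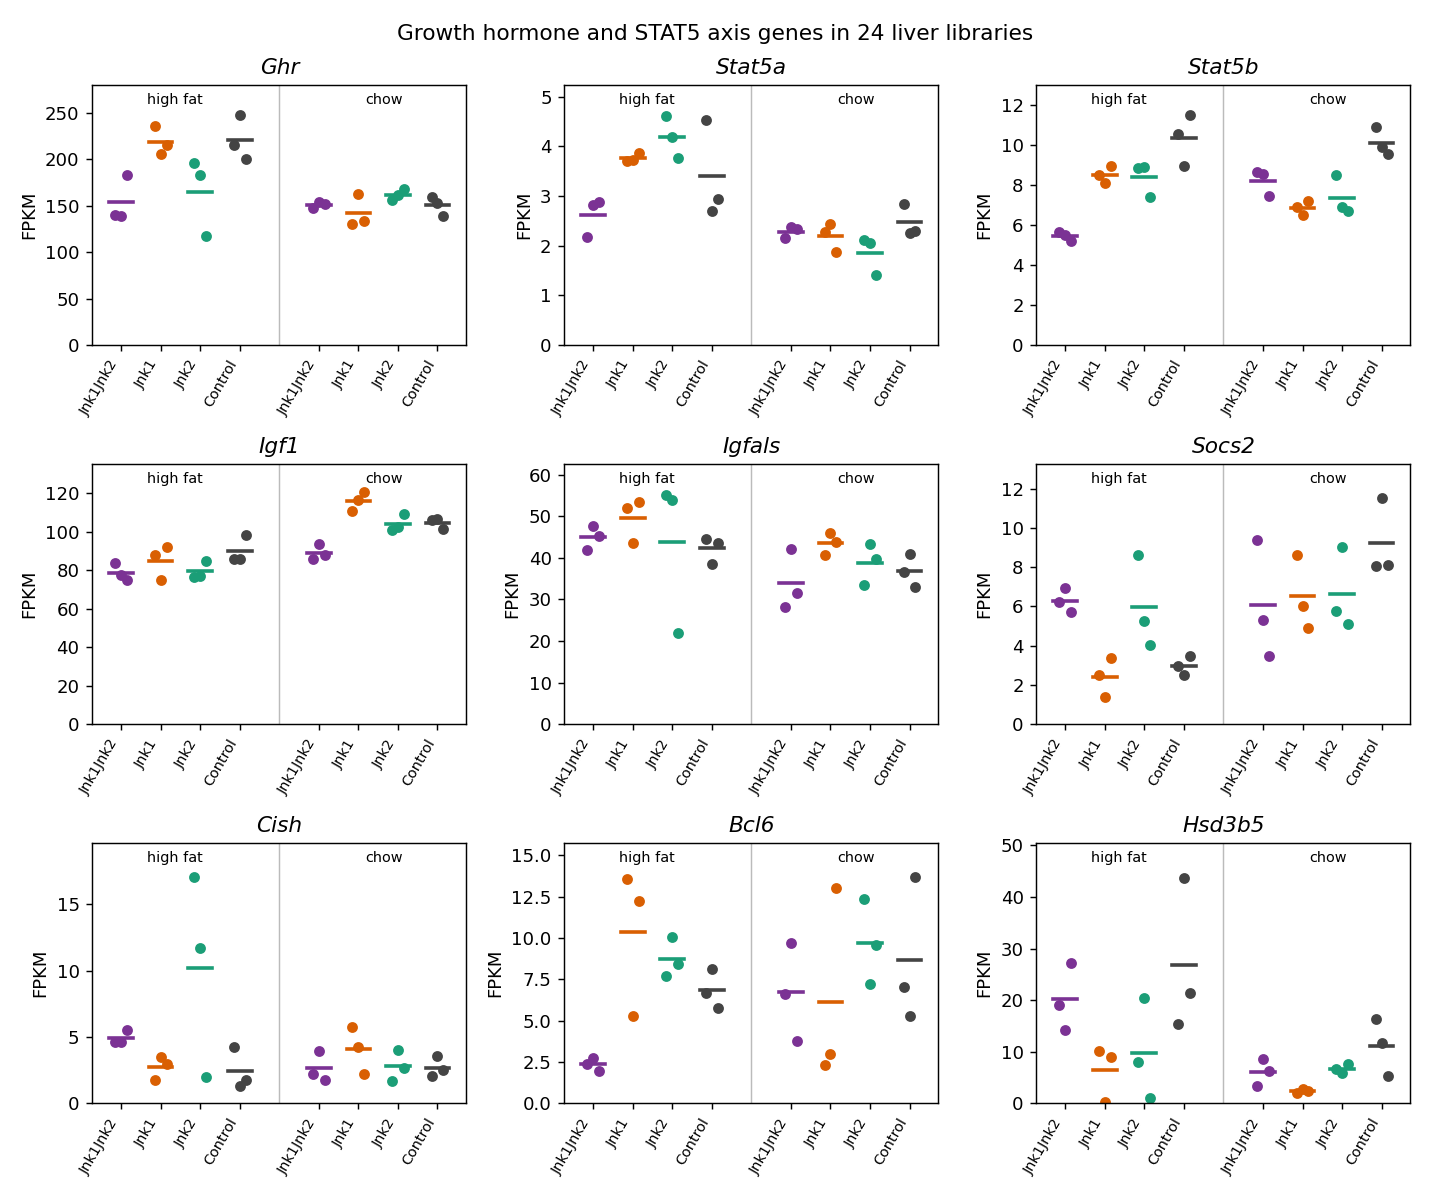
FPKM of the 9 genes in each of the 24 libraries (points), with bars at the group means; high fat groups stand left and chow groups right, each in the order Jnk1Jnk2, Jnk1, Jnk2, Control. Stat5b lies at 5.17 to 5.64 FPKM in the 3 high fat Jnk1Jnk2 libraries, below every other library, and Socs2 lies at 1.41 to 3.47 FPKM in the high fat Jnk1 and Control libraries.

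Ghr (chr15:3317760-3583230, minus strand, mm10) was the most abundant member, with a mean of 171 FPKM over the 24 libraries. Ghr on high fat stood at 140.1, 139 and 183 FPKM in Jnk1Jnk2 livers, 236, 206 and 215 FPKM in Jnk1 livers, 196, 183 and 117 FPKM in Jnk2 livers, and 215, 248 and 199.9 FPKM in Control livers. Chow libraries of Ghr held 147, 154 and 152 FPKM in Jnk1Jnk2 livers, 130.5, 163 and 133 FPKM in Jnk1 livers, 156, 162 and 168 FPKM in Jnk2 livers, and 159.8, 153 and 139.6 FPKM in Control livers. The high fat Jnk1 and Control libraries held 199.9 to 248 FPKM, and no other library held more than 196 FPKM. Ghr fell in high fat Jnk1Jnk2 livers relative to Control livers on that diet, with a log2 change of -0.53 ± 0.15 (adjusted p = 0.00719), and the libraries of the groups did not overlap. After removal of the length trend the change was -0.23 with an adjusted p of 0.28, and the call was lost. In high fat Jnk2 livers the change from Control was -0.45 ± 0.15 (adjusted p = 0.0592), with no overlap of libraries. Replicate 3 held the least Ghr of those 3, and without it the change was -0.22 (adjusted p = 0.28). Jnk1 livers differed from Control livers by -0.01 on high fat, with a 95% interval of -0.33 to 0.31.

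Ghr rose under high fat feeding in Jnk1 livers by 0.62 ± 0.15 (adjusted p = 0.00901) and in Control livers by 0.54 ± 0.15 (adjusted p = 0.0198), without overlap in either. The changes were 0.01 in Jnk1Jnk2 livers, with an interval of -0.30 to 0.33, and -0.00 in Jnk2 livers, with an interval of -0.32 to 0.31. Without replicate 3 the Jnk2 diet change was 0.23 (adjusted p = 0.182), so its value near 0 rests on that library. The test of the difference itself gave -0.53 ± 0.21 for Jnk1Jnk2 against Control (adjusted p = 0.0611) and -0.55 ± 0.21 for Jnk2 against Control (adjusted p = 0.105), so neither was called. Without high fat Jnk2 replicate 3 these were -0.53 (adjusted p = 0.0127), which passed, and -0.32 (adjusted p = 0.227). That library is in none of the groups of the Jnk1Jnk2 test. With the length trend removed, the Jnk1Jnk2 difference from Control was -0.31 (adjusted p = 0.352) and was not called. The Ghr diet change in Jnk1Jnk2 livers was then 0.19 (adjusted p = 0.345). The Control call was lost without high fat Control replicate 2 (adjusted p = 0.0876) and without chow Control replicate 3 (adjusted p = 0.0783). Clock genes moved in that comparison: Dbp, an output gene of the circadian clock, averaged 32.1 FPKM on high fat and 9.58 FPKM on chow. With a per-library clock score as covariate, an alternative chosen after seeing the data, the Ghr change in Control livers was 0.26 (adjusted p = 0.327). The score was -1.53 to 0.566 in high fat and -3.01 to -2.29 in chow Control libraries. With no overlap in the score, diet and clock cannot be told apart in that fit.

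Stat5b (chr11:100780731-100850585, minus strand) showed the smallest adjusted p of any member in any comparison. Stat5b on high fat stood at 5.64, 5.49 and 5.17 FPKM in Jnk1Jnk2 livers, 8.48, 8.09 and 8.93 FPKM in Jnk1 livers, 8.83, 8.90 and 7.37 FPKM in Jnk2 livers, and 10.5, 8.94 and 11.5 FPKM in Control livers. Chow libraries of Stat5b held 8.61, 8.51 and 7.44 FPKM in Jnk1Jnk2 livers, 6.89, 6.47 and 7.21 FPKM in Jnk1 livers, 8.48, 6.88 and 6.66 FPKM in Jnk2 livers, and 10.9, 9.89 and 9.53 FPKM in Control livers. The 3 high fat Jnk1Jnk2 libraries lay below all others, and the Control libraries of both diets lay above every library of a deleted genotype. Relative to high fat Control livers, Stat5b fell by 0.81 ± 0.097 in Jnk1Jnk2 livers (adjusted p = 3.2e-06). After removal of the length trend the change was -0.40 and was still called (adjusted p = 0.00651). Its transcript, at 5213 bases, is longer than that of 83% of tested loci. In Jnk1 and Jnk2 livers on high fat the changes were -0.25 ± 0.097 (adjusted p = 0.294) and -0.27 ± 0.097 (adjusted p = 0.0697), with no library overlapping Control.

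On chow, Stat5b fell by 0.50 ± 0.097 in Jnk1 livers (adjusted p = 0.00829). The changes in Jnk2 and Jnk1Jnk2 livers on chow were -0.42 ± 0.097 (adjusted p = 0.064) and -0.27 ± 0.097 (adjusted p = 0.269), again without overlap with Control libraries. The Jnk1 call was lost without chow Control replicate 1 (adjusted p = 0.0527) and when the 2 groups were fitted alone (adjusted p = 0.0809). Clock genes differed in the same comparison: Dbp averaged 40.9 FPKM in Jnk1 and 9.58 FPKM in Control livers, and Arntl, a core clock factor, 0.875 and 4.14 FPKM. With the clock score as covariate the Stat5b change was -0.56 and its adjusted p 0.221. The score was 1.72 to 2.23 in chow Jnk1 and -3.01 to -2.29 in chow Control libraries. With no overlap in the score, genotype and clock cannot be told apart in that fit. Between diets Stat5b was called in Jnk1Jnk2 livers, at -0.51 ± 0.097 (adjusted p = 0.000219), and that call was lost after removal of the length trend (-0.20, adjusted p = 0.134). In Control livers the diet change was 0.02, with an interval of -0.18 to 0.23.

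Stat5a (chr11:100859351-100885169, plus strand) lies beside Stat5b and was the lowest member, at a mean of 2.85 FPKM. An exon of Stat3 on the other strand overlaps it, and whether counting used strand is not given in the sources used here. Stat5a on high fat stood at 2.17, 2.81 and 2.89 FPKM in Jnk1Jnk2 livers, 3.70, 3.73 and 3.87 FPKM in Jnk1 livers, 4.60, 4.20 and 3.77 FPKM in Jnk2 livers, and 4.54, 2.70 and 2.95 FPKM in Control livers. Chow libraries of Stat5a held 2.15, 2.38 and 2.34 FPKM in Jnk1Jnk2 livers, 2.28, 2.44 and 1.88 FPKM in Jnk1 livers, 2.11, 2.06 and 1.42 FPKM in Jnk2 livers, and 2.84, 2.26 and 2.30 FPKM in Control livers. Libraries of Jnk1 and of Jnk2 livers were all higher on high fat than on chow. Stat5a rose under the high fat diet by 0.86 ± 0.13 in Jnk2 livers (adjusted p = 0.000192) and by 0.58 ± 0.13 in Jnk1 livers (adjusted p = 0.0063). The diet changes in Control and Jnk1Jnk2 livers were 0.32 ± 0.13 (adjusted p = 0.104) and 0.14 ± 0.13 (adjusted p = 0.399). The ratio of Stat5b to Stat5a, both in FPKM and so per length, was 2.11 ± 0.43, 2.25 ± 0.076, 2.00 ± 0.11 and 3.17 ± 0.80 in high fat Jnk1Jnk2, Jnk1, Jnk2 and Control livers. On chow it was 3.59 ± 0.41, 3.17 ± 0.61, 4.02 ± 0.67 and 4.11 ± 0.27 in the same order (SD, n = 3 each). The ratio keeps the length trend of the high fat Jnk1Jnk2 libraries, and Stat5b has the longer transcript (5213 against 3888 bases).

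**Figure D2:**
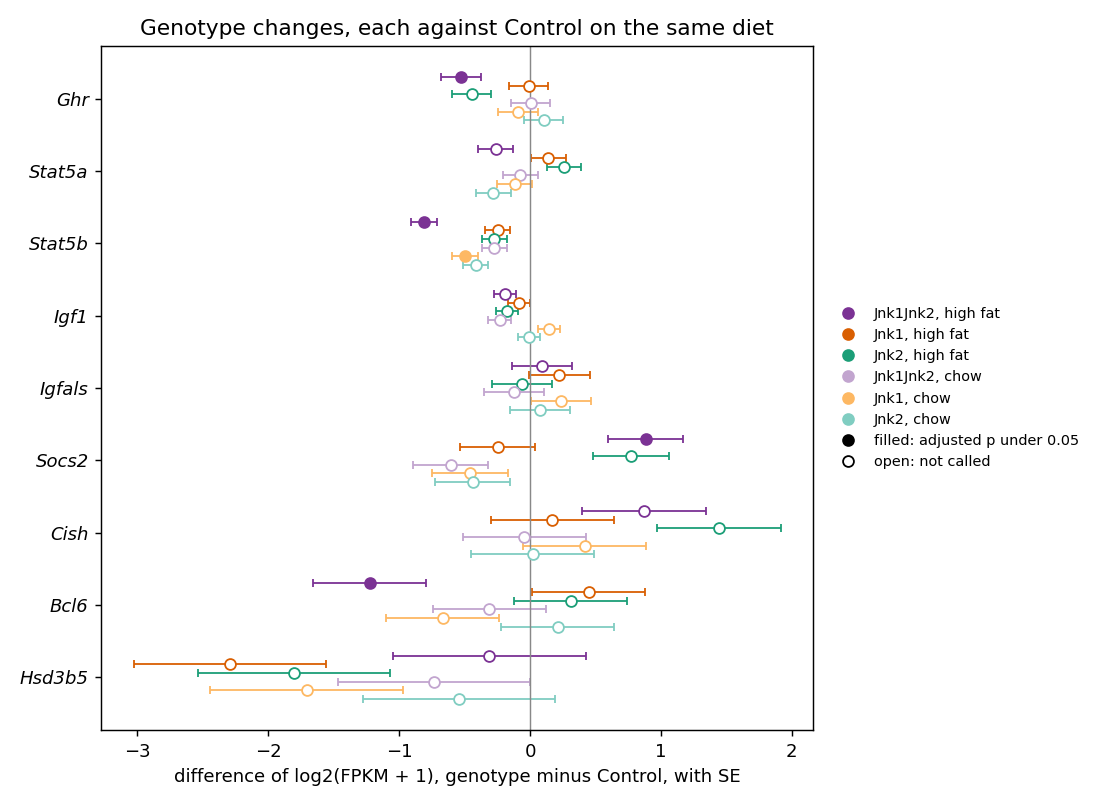
Difference of log2(FPKM + 1), genotype minus Control on the same diet, for each gene, with bars of 1 SE; dark colours are high fat, light colours chow, and filled points have an adjusted p under 0.05. Filled points are Ghr, Stat5b, Socs2 and Bcl6 for Jnk1Jnk2 on high fat and Stat5b for Jnk1 on chow.

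Igf1 (chr10:87859056-87937047, plus strand) encodes the growth factor that carries much of the hormone's effect on body growth. Igf1 on high fat stood at 83.9, 77.3 and 75.1 FPKM in Jnk1Jnk2 livers, 87.8, 74.8 and 91.9 FPKM in Jnk1 livers, 76.4, 76.9 and 85.0 FPKM in Jnk2 livers, and 85.6, 86.0 and 98.4 FPKM in Control livers. Chow libraries of Igf1 held 85.8, 93.5 and 87.8 FPKM in Jnk1Jnk2 livers, 111, 116 and 121 FPKM in Jnk1 livers, 101, 102 and 109 FPKM in Jnk2 livers, and 106, 107 and 101 FPKM in Control livers. Igf1 was the steadiest member, with a median coefficient of variation within groups of 5.14%, against 10.9% over tested loci. Under the high fat diet it fell by 0.45 ± 0.085 in Jnk1 livers (adjusted p = 0.0014) and by 0.39 ± 0.085 in Jnk2 livers (adjusted p = 0.00282), with no overlap between diets. In Control livers the diet change was -0.22 ± 0.085 (adjusted p = 0.0834), also without overlap. In Jnk1 livers the diet thus moved Ghr up and Igf1 down. The ratio of Igf1 to Ghr FPKM per library was 0.364 to 0.427 in high fat Jnk1 livers and 0.713 to 0.904 in chow Jnk1 livers.

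Igf1 was not called against Control in any of the 6 genotype comparisons of the values as deposited. The change for Jnk1Jnk2 livers was -0.19 ± 0.085 on high fat (adjusted p = 0.0701) and -0.23 ± 0.085 on chow (adjusted p = 0.273), with no overlap of libraries on either diet. Chow Jnk1 libraries all lay above the chow Control libraries, by 0.14 ± 0.085 (adjusted p = 0.488). Igf1 has the longest transcript of the 9, 7052 bases, above 92.5% of tested loci. With the length trend removed, the high fat Jnk1Jnk2 value turned to 0.35 above Control (adjusted p = 0.00408), and the diet change in Jnk1Jnk2 livers turned to 0.28 (adjusted p = 0.0118) from -0.17 ± 0.085 as deposited (adjusted p = 0.0848). With quantile normalization the values were -0.38 (adjusted p = 0.00494) and -0.48 (adjusted p = 0.000646), so the direction of Igf1 in high fat Jnk1Jnk2 livers depends on the scaling.

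Igfals (chr17:24878770-24882008, plus strand) encodes the acid-labile subunit that holds IGF1 in its circulating complex. It was called in none of the 15 comparisons and had no unadjusted p under 0.05 in limma, and its group means ranged from 49.6 ± 5.3 FPKM in high fat Jnk1 livers to 34.0 ± 7.2 FPKM in chow Jnk1Jnk2 livers (SD, n = 3 each). Neighbouring groups in the order of means overlapped throughout. High fat Jnk2 livers held 55.2, 54.0 and 22.0 FPKM, replicate 3 being the lowest of all 24 libraries, and chow Jnk2 livers 33.3, 43.4 and 39.7 FPKM. The diet change in Jnk2 livers was 0.06 ± 0.23 with that library and 0.49 without it (adjusted p = 0.0165). Without high fat Jnk2 replicate 2 the diet change was -0.14 (adjusted p = 0.73). In Jnk1Jnk2 livers it was 0.41 ± 0.23 (adjusted p = 0.133, and 0.0102 without high fat Jnk2 replicate 3), against 0.20 ± 0.23 in Control livers (adjusted p = 0.6).

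**Figure D3:**
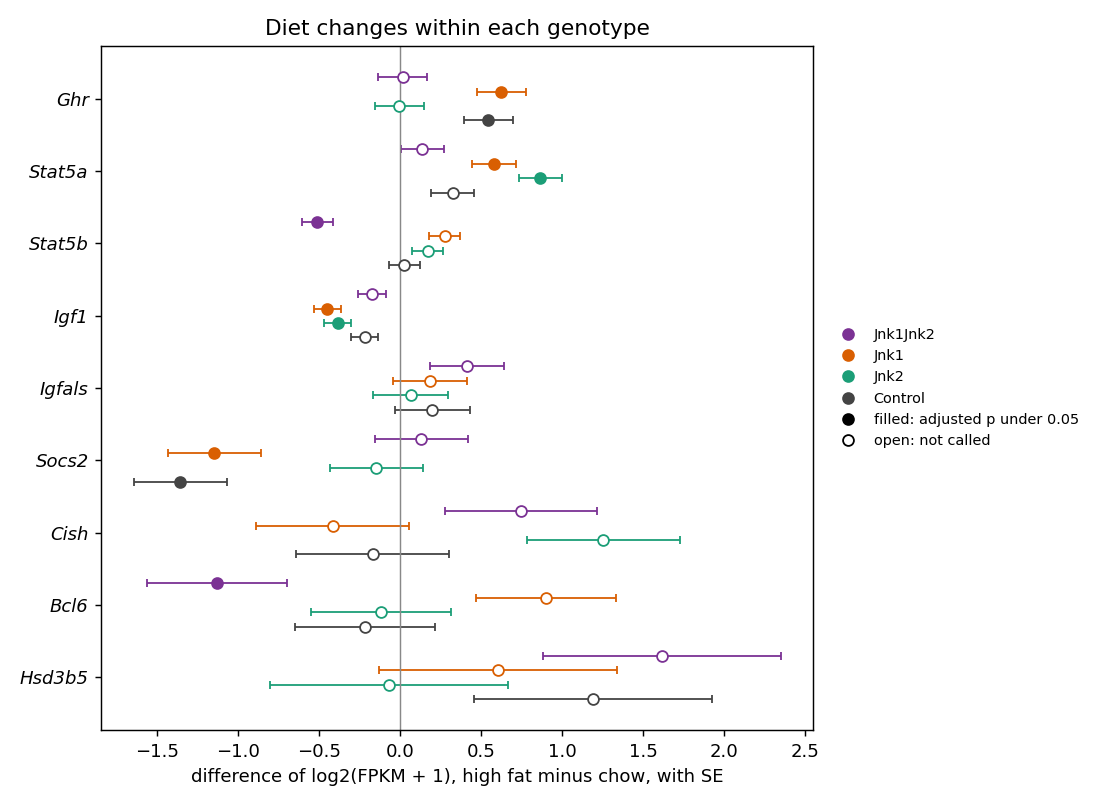
Difference of log2(FPKM + 1), high fat minus chow, for each gene within each genotype, with bars of 1 SE; filled points have an adjusted p under 0.05. Socs2 lies at -1.15 in Jnk1 and -1.36 in Control livers, at 0.13 in Jnk1Jnk2 and -0.15 in Jnk2 livers.

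Socs2 (chr10:95385362-95416857, minus strand) encodes the suppressor that marks the hormone receptor for breakdown. Socs2 on high fat stood at 6.21, 6.94 and 5.73 FPKM in Jnk1Jnk2 livers, 2.50, 1.41 and 3.38 FPKM in Jnk1 livers, 8.62, 5.28 and 4.06 FPKM in Jnk2 livers, and 2.95, 2.49 and 3.47 FPKM in Control livers. Chow libraries of Socs2 held 9.38, 5.32 and 3.49 FPKM in Jnk1Jnk2 livers, 8.61, 6.02 and 4.93 FPKM in Jnk1 livers, 5.77, 9.04 and 5.12 FPKM in Jnk2 livers, and 8.05, 11.5 and 8.13 FPKM in Control livers. High fat Jnk1Jnk2 libraries all exceeded the high fat Control libraries, while on chow the groups overlapped. Socs2 rose in high fat Jnk1Jnk2 livers relative to Control by 0.88 ± 0.29 (adjusted p = 0.0151), and by 0.81 with the length trend removed (adjusted p = 0.0287). That call was lost without high fat Jnk1Jnk2 replicate 2 (adjusted p = 0.0536) and without high fat Control replicate 2 (adjusted p = 0.0511). In high fat Jnk2 livers the change was 0.77 ± 0.29 (adjusted p = 0.0829). It was 0.98 without replicate 3 (adjusted p = 0.0481) and 0.82 without replicate 2 (adjusted p = 0.124).

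Socs2 fell under the high fat diet in Control livers, by 1.36 ± 0.29 (adjusted p = 0.00349), and in Jnk1 livers (-1.15 ± 0.29, adjusted p = 0.0108), without overlap between diets. The Jnk1 call was lost without high fat Jnk1 replicate 2 (adjusted p = 0.064), without chow Jnk1 replicate 1 (adjusted p = 0.0622) and when the 2 groups were fitted alone (adjusted p = 0.0521). The diet change was 0.13 ± 0.29 in Jnk1Jnk2 livers (adjusted p = 0.721) and -0.15 ± 0.29 in Jnk2 livers (adjusted p = 0.744). The difference in diet response between Jnk1Jnk2 and Control livers was 1.49 ± 0.41 and was called (adjusted p = 0.0086). That test called 2 members, the other being Stat5b at -0.54 ± 0.14 (adjusted p = 0.00565), where 34.9% of loci were called. With the length trend removed the Stat5b difference was -0.19 (adjusted p = 0.387), and Igf1 was called in its place at 0.54 (adjusted p = 0.00493). With all 24 libraries no member was called in the same test for Jnk1 (0% of loci called, 0 members with an unadjusted p under 0.05) or for Jnk2 (9.52% of loci, 4 members with such a p). Without high fat Jnk2 replicate 3 the Jnk2 test called Socs2 at 1.42 (adjusted p = 0.0422) and Cish at 2.21 (adjusted p = 0.011), where 8.47% of loci were called. Without high fat Jnk2 replicate 2 the values were 1.26 (adjusted p = 0.08) and 1.16 (adjusted p = 0.315). The Jnk2 test then called 0 members, where 8.27% of loci were called.

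Cish (chr9:107296689-107301961, plus strand) encodes CIS, which competes with STAT5 at the activated receptor, and exons of Gm17040 and Gm17041 overlap it on the other strand. Cish on high fat stood at 4.62, 4.64 and 5.56 FPKM in Jnk1Jnk2 livers, 1.72, 3.48 and 2.96 FPKM in Jnk1 livers, 17.0, 11.7 and 1.98 FPKM in Jnk2 livers, and 4.27, 1.32 and 1.78 FPKM in Control livers. Chow libraries of Cish held 2.23, 3.95 and 1.76 FPKM in Jnk1Jnk2 livers, 5.73, 4.27 and 2.24 FPKM in Jnk1 livers, 1.72, 4.03 and 2.67 FPKM in Jnk2 livers, and 2.05, 3.54 and 2.49 FPKM in Control livers. In high fat Jnk2 livers replicates 1 and 2 held the highest values of all 24 libraries, and replicate 3 lay within the Control range. The change against Control was 1.44 ± 0.47 (adjusted p = 0.0504). It was 2.23 without replicate 3 (adjusted p = 0.000712) and 1.18 without replicate 2 (adjusted p = 0.167). Against chow Jnk2 livers the change was 1.25 ± 0.47 (adjusted p = 0.0563). It was 2.04 without replicate 3 (adjusted p = 0.000498) and 0.99 without replicate 2 (adjusted p = 0.192). High fat Jnk1Jnk2 livers also held more Cish than any Control library on that diet, 0.87 ± 0.47 (adjusted p = 0.129). Without high fat Jnk2 replicate 3 that value was called (0.87, adjusted p = 0.0273). Both feedback genes thus lay above the high fat Control range in all 3 high fat Jnk1Jnk2 libraries, and whether either was called depended on single libraries.

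Bcl6 (chr16:23965052-23988612, minus strand) encodes the repressor, and an exon of Gm37419 overlaps it on the other strand. Bcl6 on high fat stood at 2.38, 2.74 and 1.95 FPKM in Jnk1Jnk2 livers, 13.6, 5.26 and 12.2 FPKM in Jnk1 livers, 7.73, 10.1 and 8.42 FPKM in Jnk2 livers, and 6.67, 8.14 and 5.78 FPKM in Control livers. Chow libraries of Bcl6 held 6.62, 9.70 and 3.80 FPKM in Jnk1Jnk2 livers, 2.32, 3.00 and 13.0 FPKM in Jnk1 livers, 12.3, 7.22 and 9.58 FPKM in Jnk2 livers, and 7.04, 5.30 and 13.7 FPKM in Control livers. The 3 high fat Jnk1Jnk2 libraries lay below every high fat library of the other genotypes. Bcl6 fell there relative to Control by 1.22 ± 0.43 (adjusted p = 0.0237) and relative to chow Jnk1Jnk2 livers by 1.13 ± 0.43 (adjusted p = 0.0319). With the length trend removed these changes were -1.03 (adjusted p = 0.0774) and -1.05 (adjusted p = 0.0606). The call against Control was lost without high fat Jnk1Jnk2 replicate 3 (adjusted p = 0.0673), without high fat Control replicate 1 (adjusted p = 0.0534) without high fat Control replicate 2 (adjusted p = 0.0696) and with quantile normalization (adjusted p = 0.0598). The diet call was lost without any of the 3 high fat Jnk1Jnk2 libraries (adjusted p = 0.0588, 0.0519 and 0.0854) and without chow Jnk1Jnk2 replicates 1 and 2 (adjusted p = 0.0707 and 0.142). It was also lost with no filter (adjusted p = 0.0619), array weights (adjusted p = 0.0702) or the clock score (-0.97, adjusted p = 0.134). Among chow Jnk1 libraries replicate 3 held 13.0 FPKM and the others 2.32 and 3.00 FPKM, and without it the diet change in Jnk1 livers was 1.55 (adjusted p = 0.0107), against 0.90 ± 0.43 with it (adjusted p = 0.172).

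Hsd3b5 (chr3:98618636-98645534, minus strand) encodes a hydroxysteroid dehydrogenase of male mouse liver. Near-identical Hsd3b relatives make its values uncertain, since the counting could split reads among them. Hsd3b5 on high fat stood at 19.1, 14.2 and 27.3 FPKM in Jnk1Jnk2 livers, 10.1, 0.250 and 9.05 FPKM in Jnk1 livers, 7.96, 20.4 and 1.02 FPKM in Jnk2 livers, and 15.5, 43.7 and 21.3 FPKM in Control livers. Chow libraries of Hsd3b5 held 3.30, 8.56 and 6.30 FPKM in Jnk1Jnk2 livers, 2.07, 2.82 and 2.39 FPKM in Jnk1 livers, 6.59, 5.89 and 7.53 FPKM in Jnk2 livers, and 16.3, 11.7 and 5.29 FPKM in Control livers. It was the most variable member, with a median coefficient of variation within groups of 46.7%, and high fat Jnk1 replicate 2 held the lowest value of all 24 libraries. Jnk1 livers lay below Control livers without overlap on both diets, with changes of -2.29 ± 0.73 on high fat (adjusted p = 0.19) and -1.71 ± 0.73 on chow (adjusted p = 0.281). Without high fat Jnk1 replicate 2 the high fat change was -1.27 (adjusted p = 0.543). Jnk2 livers on high fat showed -1.80 ± 0.73 (adjusted p = 0.114), -0.88 without replicate 3 (adjusted p = 0.445) and -2.58 without replicate 2 (adjusted p = 0.0347). Jnk1Jnk2 livers on high fat showed -0.31 ± 0.73 (adjusted p = 0.749). The high fat libraries of Jnk1Jnk2 livers all lay above the chow ones, with a diet change of 1.61 ± 0.73 (adjusted p = 0.0672), against 1.19 ± 0.73 in Control livers (adjusted p = 0.287). With the length trend removed these changes were 1.18 (adjusted p = 0.208) and 1.12 (adjusted p = 0.288).

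The Jnk1Jnk2 change was also compared with the sum of both single changes. In high fat livers Hsd3b5 departed from that sum by 3.78 ± 1.04 (adjusted p = 0.00875), Bcl6 by -1.98 ± 0.61 (adjusted p = 0.0165) and Stat5a by -0.66 ± 0.19 (adjusted p = 0.0109), 3 of 9 where 37% of loci were called. The mean of Hsd3b5 lay below Control in both single knockouts (-2.29 and -1.80) and at -0.31 in Jnk1Jnk2 livers. Those of Bcl6 and Stat5a lay above Control in both single knockouts, by 0.14 to 0.45 and uncalled, and below it in Jnk1Jnk2 livers. The Hsd3b5 call was lost with array weights (2.25, adjusted p = 0.0704) and when the 4 groups were fitted alone (adjusted p = 0.0539). The Stat5a call was lost with quantile normalization (-0.43, adjusted p = 0.0578), and the Stat5a and Bcl6 calls with the length trend removed (adjusted p = 0.18 and 0.0594). Igf1 was called with the length trend removed (0.55, adjusted p = 0.00486). In chow livers Stat5b departed by 0.64 ± 0.14 (adjusted p = 0.0201), 1 of 9 where 1.53% of loci were called. With the clock score as covariate the departure was 0.73 and was not called (adjusted p = 0.315). The call was also lost when any 1 of 6 libraries was left out, where the adjusted p was 0.0516 to 0.0743. These were chow Jnk1Jnk2 replicates 1 and 2, chow Jnk1 replicate 2, chow Jnk2 replicates 2 and 3 and chow Control replicate 1.

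**Figure D4:**
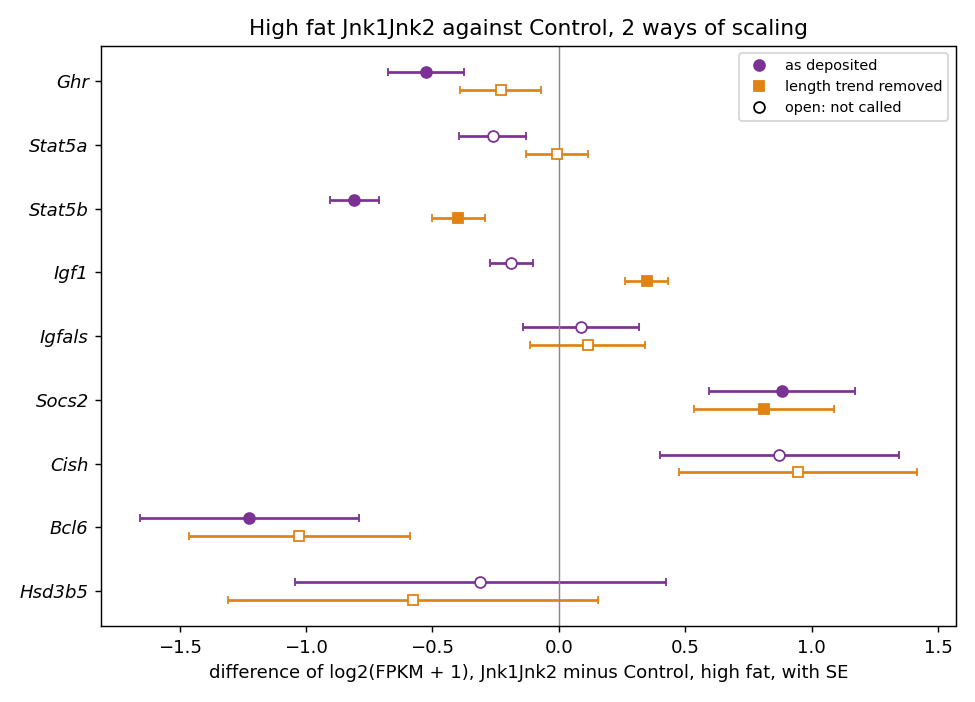
Difference of log2(FPKM + 1), high fat Jnk1Jnk2 minus high fat Control, as deposited (circles) and with each library's length trend removed (squares), with bars of 1 SE; filled points have an adjusted p under 0.05. Stat5b and Socs2 are called both ways, and Igf1 lies at -0.19 as deposited and at 0.35 with the trend removed.

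Of 16 tested in a list of 17 genes that pass on or damp the receptor's signal, 9 fell and none rose in high fat Jnk1Jnk2 livers relative to Control, where 51.2% of all loci were called. The median change was -0.28, against -0.07 over all tested loci. The largest falls were in Prlr, the prolactin receptor gene (13.9 against 32.1 FPKM, -1.15 ± 0.14, adjusted p = 5.19e-06) and Stat3 (-0.93 ± 0.16, adjusted p = 0.000107). Irs2 and Irs1, insulin receptor substrates, Ptpn11, the gene of the phosphatase SHP2, and Jak2 itself fell too, at -0.70, -0.68, -0.69 and -0.54. After removal of the length trend 4 fell and 1 rose, where 33.4% of loci were called. The median was then -0.04, and the Jak2 value was -0.15 (adjusted p = 0.111). In high fat Jnk2 livers Prlr (-0.80 ± 0.14, adjusted p = 0.00138) and Stat3 (-0.51 ± 0.16, adjusted p = 0.0424) fell, and both were still called without replicate 3 (adjusted p = 0.00843 and 0.0166).

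Prlr rose under high fat in Jnk1 livers (39.7 against 16.5 FPKM, 1.24 ± 0.14, adjusted p = 2.14e-05) and in Control livers (32.1 against 17.1 FPKM, 0.87 ± 0.14, adjusted p = 0.000541). The list's diet counts were 3 higher and 5 lower in Jnk1Jnk2, 3 and 0 in Jnk1, 3 and 0 in Jnk2, and 3 and 1 in Control livers, where 56.9%, 15%, 26% and 16.3% of loci were called. With the length trend removed the counts were 3 and 2, 4 and 2, 3 and 0, and 5 and 3 in that order. The shares of loci were then 41.1%, 18.6%, 23.6% and 21.4%. Without high fat Jnk2 replicate 3 the Jnk2 counts were 3 and 2, where 28.1% of loci were called. Sirpa, a receptor gene of myeloid cells, was among those that rose in Jnk1Jnk2, Jnk1 and Jnk2 livers, and macrophage markers rose with diet too, 8, 3, 8 and 5 of 10 in Jnk1Jnk2, Jnk1, Jnk2 and Control livers. Their part in these changes was not tested.

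Of 8 tested genes of IGF1 carriers and receptors, 2 rose and 2 fell in high fat Jnk1Jnk2 livers relative to Control, a share near the 51.2% of all loci. Igfbp2, a binding protein of IGF1 in plasma, averaged 1013 FPKM in high fat Jnk1Jnk2 livers and 234 FPKM in high fat Control livers (2.13 ± 0.30, adjusted p = 1.62e-05). The insulin receptor gene Insr averaged 6.70 against 19.3 FPKM (-1.41 ± 0.15, adjusted p = 1.05e-06), Igf2r fell by 0.92 ± 0.12 (adjusted p = 5.63e-06) and Igfbp7 rose by 0.65 ± 0.16 (adjusted p = 0.0028). With the length trend removed, Igfbp2 (1.79), Insr (-0.77) and Igf2r (-0.30) were still called and Igfbp7 was not (adjusted p = 0.153). The same 4 genes were called in the same directions in high fat Jnk2 livers (12.4% of loci called), with Igfbp2 at 1.25 ± 0.30 (adjusted p = 0.0102). Without replicate 3 its change was 0.73 (adjusted p = 0.0349), and 3 of the 8 rose and 2 fell, where 11.6% of loci were called. The diet lowered Igfbp2 to 234 FPKM in Control livers, against 847 on chow (-1.88 ± 0.30, adjusted p = 0.000421), and Igfbp1 to 21.6 FPKM, against 122 on chow (-2.51 ± 0.54, adjusted p = 0.00396).

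Among genes known to be male-biased in mouse liver and to depend on growth hormone, many fell with the high fat diet. This list, like the other lists here, was chosen with earlier results of these data known. Its counts and medians are therefore a description and no separate evidence. Of 17 tested loci, 12 fell and none rose in Jnk1Jnk2 livers, 9 fell and 1 (Hsd3b2) rose in Jnk1 livers, 7 fell and none rose in Jnk2 livers, and 9 fell and none rose in Control livers. Over all loci 56.9%, 15%, 26% and 16.3% were called in these comparisons, in either direction. The medians were -0.76, -0.82, -0.61 and -0.87, against 0.03, 0.04, 0.10 and 0.04 over all tested loci. Cyp4a12b, a fatty acid hydroxylase gene with a near-identical neighbour, held 1.97, 2.61 and 2.26 FPKM in high fat Control livers, against 24.7, 25.6 and 27.7 FPKM in chow Control livers. Its change was -3.04 ± 0.37 in Control livers (adjusted p = 3e-05), -2.52 in Jnk1Jnk2, -3.47 in Jnk1 and -1.46 in Jnk2 livers (-2.01 without replicate 3). Ugt2b38, Ugt2b1, Cyp2d9, Cyp7b1 and the locus shared by Serpina3k and Serpina3m were also called lower in all 4 genotypes. With the length trend removed 12, 10, 9 and 9 of the 17 fell in the same order of genotypes, and 1 rose in Jnk1 livers. The shares of loci called were then 41.1%, 18.6%, 23.6% and 21.4%. Without high fat Jnk2 replicate 3, 7 fell and 1 rose in Jnk2 livers, where 28.1% of loci were called. Cyp2d9 lost its call there (adjusted p = 0.139).

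**Figure D5:**
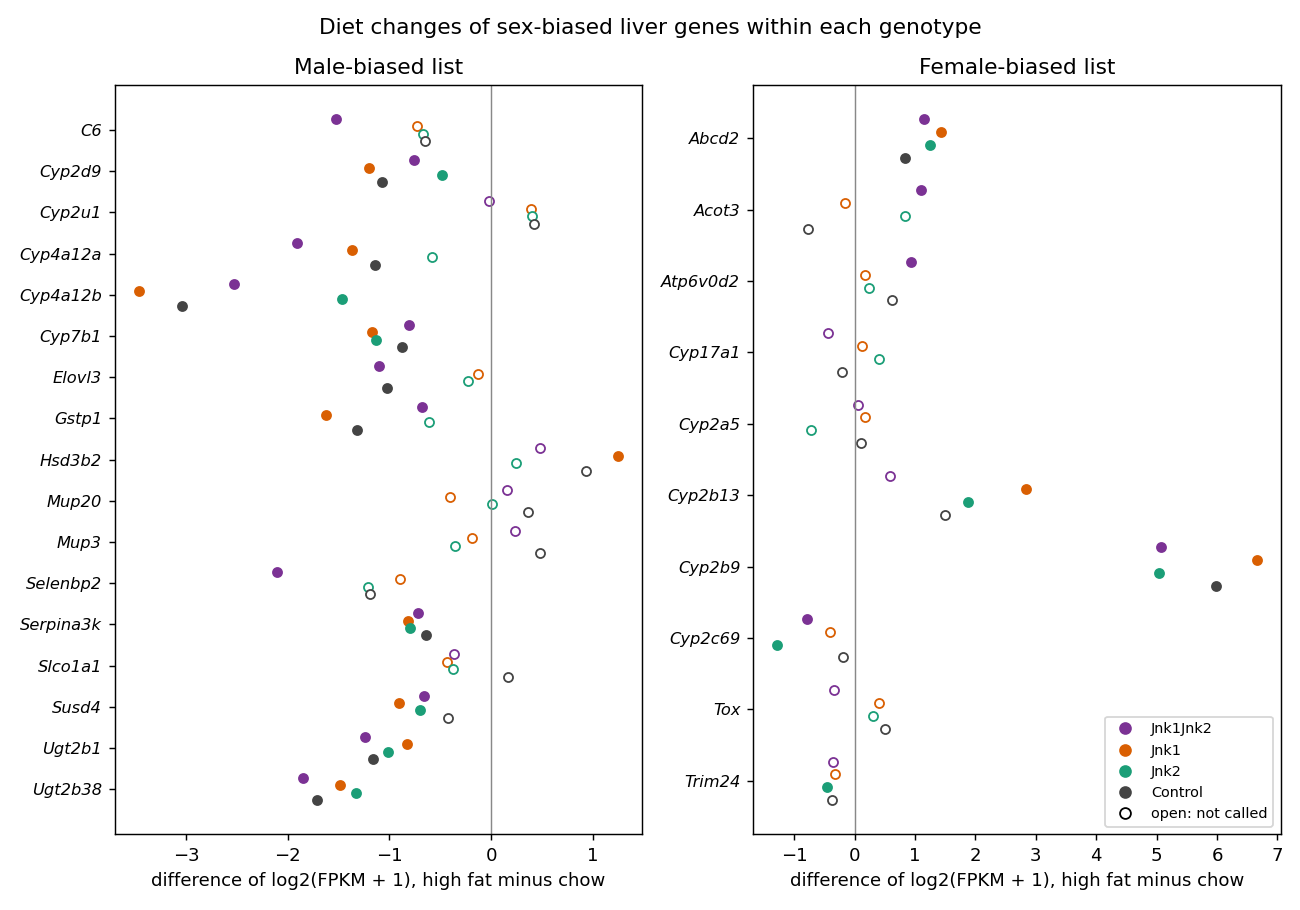
Difference of log2(FPKM + 1), high fat minus chow, for each tested gene of the male-biased list (left panel) and the female-biased list (right panel) in each genotype; filled points have an adjusted p under 0.05. Cyp4a12b lies between -3.47 and -1.46 and Cyp2b9 between 5.04 and 6.65.

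Among genes known to be female-biased, 23 of 24 listed were matched by name and 10 of them were tested, the others being under the filter. Cyp3a41a had no matching name and was not analysed here. Cyp2b9, a cytochrome P450 gene, rose under high fat in every genotype: its libraries held 17.6, 50 and 62.6 FPKM in Jnk1Jnk2, 137, 157 and 75.9 in Jnk1, 110.6, 66.0 and 5.66 in Jnk2 and 77.7, 79.6 and 67.6 in Control livers. On chow no library exceeded 0.523 FPKM. Abcd2, a peroxisomal transporter gene, rose in all 4 as well, by 1.15, 1.43, 1.25 and 0.83 on the log2 scale in Jnk1Jnk2, Jnk1, Jnk2 and Control livers. In all, 4 rose and 1 fell in Jnk1Jnk2, 3 rose and none fell in Jnk1, 3 rose and 2 fell in Jnk2, and 2 rose and none fell in Control livers. The shares of all loci called were 56.9%, 15%, 26% and 16.3% in the same order. Cyp2c69 fell in Jnk1Jnk2 (-0.79, adjusted p = 0.00882) and Jnk2 livers (-1.29, adjusted p = 0.000802), and Trim24 in Jnk2 livers (-0.46, adjusted p = 0.0307). Both also had negative changes, not called, in the other genotypes. Without high fat Jnk2 replicate 3, 4 rose and 2 fell in Jnk2 livers, where 28.1% of loci were called.

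Genotype changes of sex-biased genes are set beside the share of all loci called. Elovl3, a male-biased fatty acid elongase gene, fell in Jnk1 livers on chow (23.3 against 105 FPKM, -2.13 ± 0.20, adjusted p = 6.37e-06) and on high fat (21.1 against 51.5 FPKM, -1.24 ± 0.20, adjusted p = 0.0053). The shares of loci called were 2.2% and 0.227%. On chow its Jnk1 libraries held 20.1, 27 and 22.8 FPKM and its Control libraries 116, 95.1 and 104 FPKM. Of the 17 male-biased loci, Elovl3, Selenbp2 and Ugt2b1 fell in Jnk1 livers on chow, and Selenbp2, Cyp2u1 and C6 fell in Jnk1Jnk2 livers on high fat, where 2.2% and 51.2% of loci were called. C6 lost its call with the length trend removed (-0.60, adjusted p = 0.0731). Cyp4a12b (1.54 ± 0.37, adjusted p = 0.01) and Cyp2d9 (0.62 ± 0.17, adjusted p = 0.0185) rose in high fat Jnk2 livers, where 12.4% of loci were called. The 3 high fat Jnk2 libraries held 4.48, 6.63 and 19.4 FPKM of Cyp4a12b, and without the last the change was 0.98 (adjusted p = 0.0476). Dbp, the clock output gene, differed in the chow Jnk1 comparison as given above, and its part in the Elovl3 change was not tested. On high fat the clock score was 2.00 to 2.27 in Jnk1 and -1.53 to 0.566 in Control libraries. These did not overlap, so genotype and clock cannot be told apart there either. With all libraries Acot3, an acyl-CoA thioesterase gene, was the single female-biased gene called, higher by 1.19 ± 0.37 in high fat Jnk1Jnk2 livers (adjusted p = 0.0106) and by 1.51 ± 0.37 in high fat Jnk2 livers (adjusted p = 0.0105). In these comparisons 51.2% and 12.4% of loci were called. Without high fat Jnk2 replicate 3, 2 of the 10 female-biased genes rose and 1 fell in the Jnk2 comparison, where 11.6% of loci were called. Acot3 was then at 2.06 (adjusted p = 0.000403).

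Factors that act with STAT5 and BCL6 were tested through 11 genes. In high fat Jnk1Jnk2 livers 5 fell and none rose, where 51.2% of all loci were called, with a median of -0.57 against -0.07 over all tested loci. After removal of the length trend 5 fell and 2 rose, where 33.4% of loci were called, and the median was -0.43. Among them were Ncor1, a corepressor gene (-1.12 ± 0.17, adjusted p = 3.49e-05), Nr3c1, the glucocorticoid receptor gene (-1.10 ± 0.13, adjusted p = 2.4e-06), Hnf4a (-0.82 ± 0.19, adjusted p = 0.00112) and Foxa1 (-0.59 ± 0.13, adjusted p = 0.00135). These 4 were still called with the length trend removed, at -0.60 to -0.45. Nr3c1 fell in high fat Jnk2 livers as well (-0.48 ± 0.13, adjusted p = 0.0192, and -0.47 with adjusted p = 0.0424 without replicate 3).

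The genes whose pattern was most like each member's were ranked by Pearson's r of log2(FPKM + 1) over the 24 libraries, as a description. These libraries share diets and genotypes, and the high fat Jnk1Jnk2 libraries share a length trend. The closest to Ghr was Lin7a (0.91), to Stat5a Pparg (0.90), to Stat5b Sgpl1 (0.89), to Igf1 Fgfr1 (0.89) and to Igfals Hes6 (0.90). For Socs2 it was Ptpla (0.86), for Cish Phlda1 (0.86), for Bcl6 Rfx1 (0.81) and for Hsd3b5 Hsd17b2 (0.76).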

How the data were processed

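The authors deposited 1 table of FPKM per locus for the 24 liver libraries; per the submitters' processing notes the tools were TopHat, Cufflinks and Cuffdiff and the build was mm10, with no versions or strand setting given in the sources used here. Read counts are not used here, so the depth is known only in relative terms, 0.299 to 1 of the deepest library, and no counting interval is given. A few loci, such as albumin in 4 libraries, are listed at 0 as failed estimates. FPKM relate fragments to transcript length and total, so they move with what a few abundant loci take and with any length bias of a library.

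Values were tested as log2(FPKM + 1) with limma 3.58.1 in R 4.3.3 (limma-trend, 1 mean per group, 24 libraries, 16 residual degrees of freedom) on the 10562 loci with a mean of at least 1 FPKM, with Benjamini-Hochberg adjustment within each of 15 comparisons and a threshold of 0.05. An exact permutation test of 3 against 3 libraries cannot go below 0.1. Tested on simulated data, Jnk1Jnk2 against Control on high fat recovered 52%, 94%, 100% and 98% of 50 loci each changed by 0.5, 1, 1.5 and 2 (log2), with 8 false calls among 10562 loci. In the real comparison 51.2% of loci were called, far more than were changed in the simulation. The simulated rates may therefore not carry over. Length trends were removed per library by loess (span 0.5) on the longest transcript of 9452 loci. Alternatives were other pseudocounts, filters, scalings, weights, blocks and left-out libraries. The clock score covariate and the length trend combined with the replicate block were chosen after seeing the data. Some list genes are counted but not reported by name here. The 9 genes and all gene lists were chosen with earlier results of these data known. Named genes of a list are at most 6 per comparison, those called with the largest change. Python 3.11.15, numpy 2.4.6, pandas 2.3.3 and matplotlib 3.10.9 were used for tables and figures.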

Additional observations from a re-analysis of the deposited data

Results flagged for a closer look

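In 6 tests the effect of 1 factor on a gene differed with another factor, by a test of the difference itself (limma, adjusted over all tested loci). The diet response of Jnk1Jnk2 livers differed from that of Control livers for Socs2 by 1.49 ± 0.41 (adjusted p = 0.0086) and for Stat5b by -0.54 ± 0.14 (adjusted p = 0.00565). The change in Jnk1Jnk2 livers on high fat differed from the sum of the single knockouts for Stat5a by -0.66 ± 0.19 (adjusted p = 0.0109), for Bcl6 by -1.98 ± 0.61 (adjusted p = 0.0165) and for Hsd3b5 by 3.78 ± 1.04 (adjusted p = 0.00875). On chow it differed for Stat5b by 0.64 ± 0.14 (adjusted p = 0.0201). These tests called 2, 3 and 1 of the members, where 34.9%, 37% and 1.53% of loci were called. With the length trend removed the calls of Stat5b for diet (adjusted p = 0.387), Stat5a (adjusted p = 0.18) and Bcl6 (adjusted p = 0.0594) were lost. The Hsd3b5 call was lost with array weights (adjusted p = 0.0704) and the chow Stat5b call with the clock score (adjusted p = 0.315). In all 6 the Control libraries are shared with the plain genotype comparisons.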

How the results depend on the processing

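Of 135 member changes 21 were called, all 21 kept their sign in the 36 settings, and 8 kept their call in every setting that could test them. Igf1, not called as deposited, reversed to 0.35 against Control and to 0.28 between diets in high fat Jnk1Jnk2 livers with the length trend removed, with or without the replicate block; the cause was not tested. Size factors moved the median of all loci from 0.10 to -0.03 for high fat against chow in Jnk2 livers and from -0.14 to -0.01 for the departure from additivity on high fat. They moved the share of higher calls from 38.3% to 49.7% for high fat Jnk1Jnk2, from 61.3%, 75.5% and 61.9% to 44%, 45.7% and 44.5% for diet in Jnk1, Jnk2 and Control, from 65% to 48.8% for the diet difference of Jnk2 and from 33.9% to 50.2% for non-additivity on high fat. Quantile normalization moved 17.6% to 33.3% for chow Jnk1Jnk2 and 45.7% to 59.2% for non-additivity on chow.

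The number of members called moved as follows. For high fat against chow in Jnk1Jnk2 livers (2 as reported) it was 1 with no filter, with array weights, with the clock score, and with the length trend removed with or without the block, and 4 with only the groups compared. For Jnk2 against Control on high fat (0) it was 2 with size factors or the clock score, 3 with quantile normalization or array weights, and 1 with the replicate block, alone or with the length trend removed. Array weights gave 1 for Jnk1 on high fat and for Jnk1Jnk2 and Jnk2 on chow (0 each), 4 for diet in Jnk2 and in Control livers (2 each), and 2 for the diet difference of Jnk2 (0). A mean of at least 5 FPKM, which leaves out Stat5a and Cish, gave 1 for diet in Jnk2 livers. The clock score gave 1 for diet in Control livers, 0 for Jnk1 on chow and 0 for non-additivity on chow, and fitting only the groups compared gave 0 for Jnk1 on chow.

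With each library left out, the count ranged from 3 to 5 for Jnk1Jnk2, 0 to 0 for Jnk1 and 0 to 2 for Jnk2 on high fat, and from 0 to 0, 0 to 1 and 0 to 1 on chow. It ranged from 1 to 4, 3 to 5, 2 to 4 and 1 to 3 for diet in Jnk1Jnk2, Jnk1, Jnk2 and Control livers, from 2 to 3, 0 to 0 and 0 to 2 for the diet differences, and from 3 to 5 and 0 to 1 for non-additivity on high fat and chow. Replicate numbers did not pair libraries: same-numbered deviations had a median correlation of -0.02 over 84 pairs, with 8 over 0.1. With the replicate block Cish in high fat Jnk2 livers was called against Control (adjusted p = 0.0444) and against chow (adjusted p = 0.0486).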
